A study of Mus musculus with 8 samples.

Results

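The 43 genes described here are type I interferon-stimulated genes. They were chosen by symbol and matched to the gene names of the deposited count matrices, in which all 43 were found among 33696 genes. The matrices came from live CD45+ leukocytes sorted from liver metastatic tumours of 2 Vav1CreTet2KO mice and 2 Tet2fl/fl control mice, 30 days after Venus-AKTPM/LOH colorectal cancer cells had been injected into the spleen. Both genotypes carried these tumour cells, and each mouse gave 1 library of 5′ single-cell RNA counts in which each unique molecular identifier (UMI) stands for 1 captured transcript. Vav1-Cre acts throughout the blood lineage, so the deletion is not limited to any leukocyte type compared here. Cells were stained for CD45.2, and neither the age nor the strain of the mice was given in the sources used here. With 2 mice per genotype, an exact two-sided permutation test over mice cannot give a p-value below 0.33.

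Type I interferons are secreted when cells sense foreign or misplaced nucleic acids. They bind a shared receptor made of IFNAR1 and IFNAR2, whose kinases phosphorylate STAT2, among others. With IRF9 it is part of a complex that binds the interferon-stimulated response element in the promoters of its target genes. The targets include the IFIT proteins that bind viral RNA, the OAS enzymes that trigger RNA decay, cytosolic nucleic acid sensors, the ubiquitin-like modifier ISG15 with its regulators, and membrane and nuclear antiviral effectors. In tumours these genes are read as a trace of interferon exposure in leukocytes, although interferon gamma can raise part of them.

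Promoter windows from RefSeq, on build GRCm38.p6, were matched for 32 of the 43 genes and ran from 250 bases before to 50 bases after the gene start. A gene with several starts had a window for each, and was counted once if any of them held a match. The response element, searched as 2 runs of GAAA with any 2 bases between them, on either strand and with overlaps counted, occurred in 18 of these 32 genes (56.2%), against 1079 of all 27025 genes with windows (3.99%). The gamma-activated site, searched as TTCNNNGAA, which reads the same on both strands, occurred in 6 of 32 genes (18.8%), against 9.55% of all genes with windows. The 200 bases before the start are shown for 5 genes whose values are given below and for Ifit3b, a near-identical neighbour of Ifit3, each written 5′ to 3′ on the gene's strand with every match of the response element in capitals. Where matches overlapped, the capitals run together.
Ifit1: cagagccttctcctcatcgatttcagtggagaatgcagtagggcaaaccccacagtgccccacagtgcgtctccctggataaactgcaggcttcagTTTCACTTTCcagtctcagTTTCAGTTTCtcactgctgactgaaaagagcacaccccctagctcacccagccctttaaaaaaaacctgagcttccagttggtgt
Ifit3: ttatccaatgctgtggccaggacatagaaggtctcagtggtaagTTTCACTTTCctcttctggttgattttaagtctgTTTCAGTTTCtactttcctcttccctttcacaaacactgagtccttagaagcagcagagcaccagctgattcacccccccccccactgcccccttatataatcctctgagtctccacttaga
Ifit3b: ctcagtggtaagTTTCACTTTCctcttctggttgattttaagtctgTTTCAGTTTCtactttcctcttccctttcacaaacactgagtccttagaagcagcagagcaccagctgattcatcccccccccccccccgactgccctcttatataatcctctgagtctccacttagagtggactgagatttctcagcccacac
Isg15: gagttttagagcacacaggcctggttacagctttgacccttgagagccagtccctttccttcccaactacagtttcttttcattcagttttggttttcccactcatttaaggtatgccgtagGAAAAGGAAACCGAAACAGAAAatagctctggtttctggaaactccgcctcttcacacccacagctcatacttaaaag
Oas1a: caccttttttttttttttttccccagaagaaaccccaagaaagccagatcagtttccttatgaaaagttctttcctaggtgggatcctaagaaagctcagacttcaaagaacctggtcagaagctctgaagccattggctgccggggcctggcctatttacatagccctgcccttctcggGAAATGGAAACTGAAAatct
Bst2: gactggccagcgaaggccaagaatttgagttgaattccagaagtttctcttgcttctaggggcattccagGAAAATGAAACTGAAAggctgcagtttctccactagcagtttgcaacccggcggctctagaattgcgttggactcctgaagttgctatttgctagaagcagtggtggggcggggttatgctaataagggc

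These windows lie on the plus strand of chromosome 19 for Ifit1 (chr19:34640689-34640888), Ifit3 (chr19:34583329-34583528) and Ifit3b (chr19:34607757-34607956), and on the minus strand for Isg15 (chr4:156200819-156201018), Oas1a (chr5:120907526-120907725) and Bst2 (chr8:71537473-71537672). Isg15 held 3 overlapping matches, and the other 5 windows held 2 each. The windows of Ifit3 and Ifit3b share a long run around both elements, and their transcripts were 97.2% identical over 2030 aligned bases. Oas1a and Oas1g transcripts were 97.6% identical over 1861 bases and those of Mx1 and Mx2 96.1% over 646 bases, so reads may be split between the members of each pair and their single values are uncertain. Dtx3l and Parp9 share 367 bases at 100% identity, but these genes overlap on opposite strands of chromosome 16. Whether the overlap affects their counts was not tested. In the annotation of build GRCm39, all 5 IFIT genes lie between positions 34527932 and 34632174 of chromosome 19, and all 6 OAS genes lie on chromosome 5.

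Before filtering, the libraries held 10917 and 11743 barcodes in knockout mice and 12494 and 13870 in control mice, with 57190926 and 60456627 UMIs against 89945864 and 91789597 UMIs. After filters and removal of called doublets, 46472 cells were used. Ptprc, which encodes CD45, had a UMI in 78 and 76.8% of knockout cells and in 82 and 82.2% of control cells. Between 272 and 303 barcodes were shared by any pair of libraries. For monocyte/macrophage-like, conventional dendritic-like and CD8 T cells, counts of called members are given below with and without these cells. The libraries stood far apart in makeup: B-like cells were 42.1 and 44.4% of knockout cells, against 5.81 and 4.72% of control cells, and monocyte/macrophage-like cells 9.42 and 10.9% of knockout cells, against 55.5 and 61.2% of control cells. Tet2 had 37.8 and 32.3 UMIs per 1000000 UMIs in knockout libraries and 67.2 and 65.9 in control libraries. On the same scale monocyte/macrophage-like cells had 45.8 and 46.1 of Tet2 in knockout mice against 69.9 and 74.0 in control mice (log2 change -0.65, adjusted p = 0.00868), and it was not called in any of the other 7 classes. The counts cover the whole gene, and whether its reads cover the deleted part was not given in the sources used here.

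The level of the 43 genes together, as their UMIs per 10000 UMIs of a class, was 105 and 133 in knockout monocyte/macrophage-like cells, above the other named classes of the same mice, and 76.2 and 53.7 in control ones. Both knockout values lay above both control values. Plasmacytoid dendritic-like cells, which are specialised for interferon secretion, had 75.7 and 82.4 in knockout mice and 72.4 and 66.2 in control mice, the first control value resting on 3 cells. Neutrophil-like cells had 58.8 and 72.4 in knockout mice, against 53.6 and 29.2 in control mice. The genotypes overlapped in conventional dendritic-like cells, at 42.8 and 63.1 in knockout mice and 54.7 and 47.8 in control mice, and in plasma-like cells, with 15.5 and 23.2 against 18.1 and 10.3. CD4 conventional T cells had 31.5 and 32.6 in knockout mice and 25.9 and 18.6 in control mice, and CD8 T cells 26.5 and 30.9 against 16.8 and 14.7. B-like cells had 15.8 and 20.9 against 14.9 and 11.5, and NK-like cells 13.7 and 15.4 against 10 and 9.3. In these 4 lymphocyte classes the knockout values lay above the control values, by less than 1 UMI per 10000 between the nearest B-like mice. The NK-like and B-like levels of a genotype, and the CD4 and CD8 T cell levels in knockout mice, lay within a few units of each other. Over all used cells the sum was 42.2 and 52.2 in knockout mice and 65 and 45.9 in control mice, so the genotypes overlapped in whole libraries although they were apart within most classes. The whole-library sum combines the share of each class with its level, and the share of monocyte/macrophage-like cells was the lower one in knockout mice. Single genes made up much of the sum in some classes. Ifitm3, a membrane protein that blocks viral entry, made up 45.3 and 41% of member UMIs in knockout monocyte/macrophage-like cells and 48.6 and 65.6% in control ones. In plasmacytoid dendritic-like cells Bst2, the tetherin that holds budding virus at the cell surface, made up 65.3 and 59.4% in knockout mice and 78 and 71.3% in control mice.

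**Figure D1:**
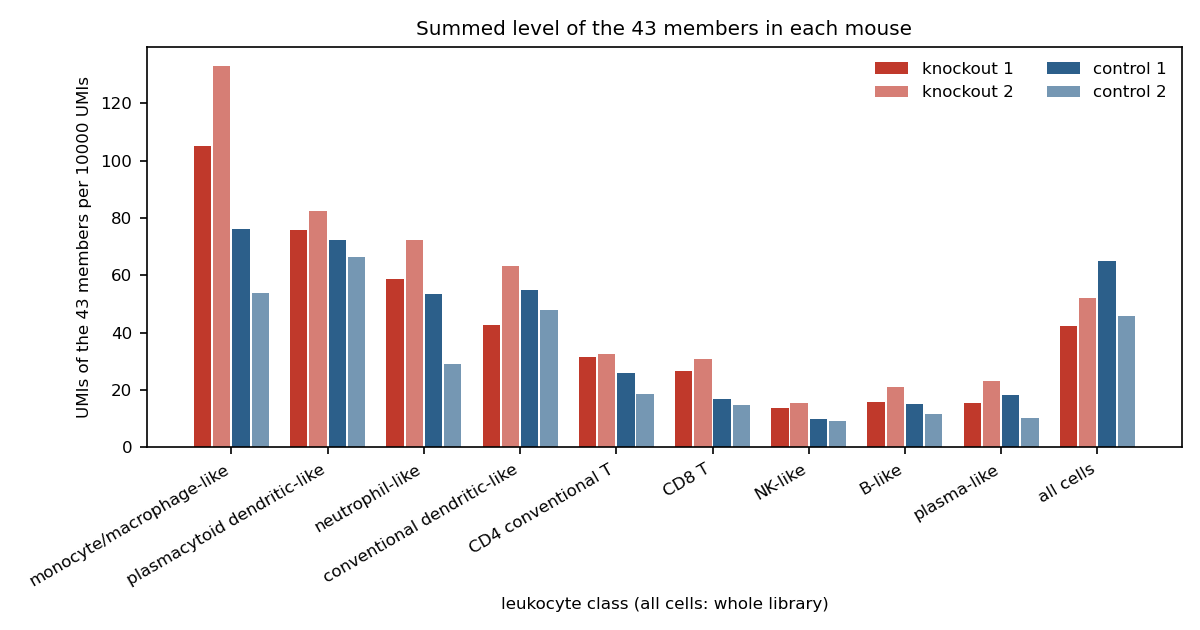
UMIs of the 43 genes per 10000 UMIs of a class (vertical axis, starting at 0) in each leukocyte class and in all cells, with 1 bar per mouse and the knockout bars left of the control bars. Monocyte/macrophage-like cells had 105 and 133 in knockout mice against 76.2 and 53.7 in control mice, while the bars for all cells overlapped.

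Genotypes were compared gene by gene within 8 classes that had at least 30 cells in every mouse, by edgeR's quasi-likelihood test on UMI counts summed per mouse, with Benjamini-Hochberg adjustment over all genes tested in the class. A gene is said to have risen, fallen or been called where the adjusted p was under 0.05. Values per mouse are UMIs per 1000000 UMIs of the class (CPM), and changes are log2 ratios of knockout over control with their standard error. Of the 43 genes, 20 rose in at least 1 class and 23 in none, where 1595 of the 15099 genes tested in any class (10.6%) rose in at least 1, and no member fell in any class at this threshold. Of those that rose, 14 did so in 1 class, 5 in 2 classes (Ifit1bl1, Mx1, Isg20, Samd9l and Sp100) and 1 in 3 classes (Slfn8). At an unadjusted p under 0.05, the members that were lower in knockout mice numbered 4 in plasma-like cells, 2 in neutrophil-like cells, 1 each in B-like, CD4 conventional T, CD8 T and conventional dendritic-like cells, and 0 in NK-like and monocyte/macrophage-like cells. Over all genes, such a p in either direction held for 33.8% in monocyte/macrophage-like, 25% in conventional dendritic-like and 21.6% in neutrophil-like cells. It held for 18.6% in plasma-like, 16% in CD8 T, 12.7% in NK-like and 11.1% each in B-like and CD4 conventional T cells. DESeq2 called 1 member lower, in plasma-like cells. Of all genes tested, 9.01% fell in monocyte/macrophage-like, 4.64% in conventional dendritic-like, 2.74% in neutrophil-like, 1% in plasma-like, 0.856% in CD8 T, 0.323% in NK-like, 0.2% in B-like and 0.0124% in CD4 conventional T cells.

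**Figure D2:**
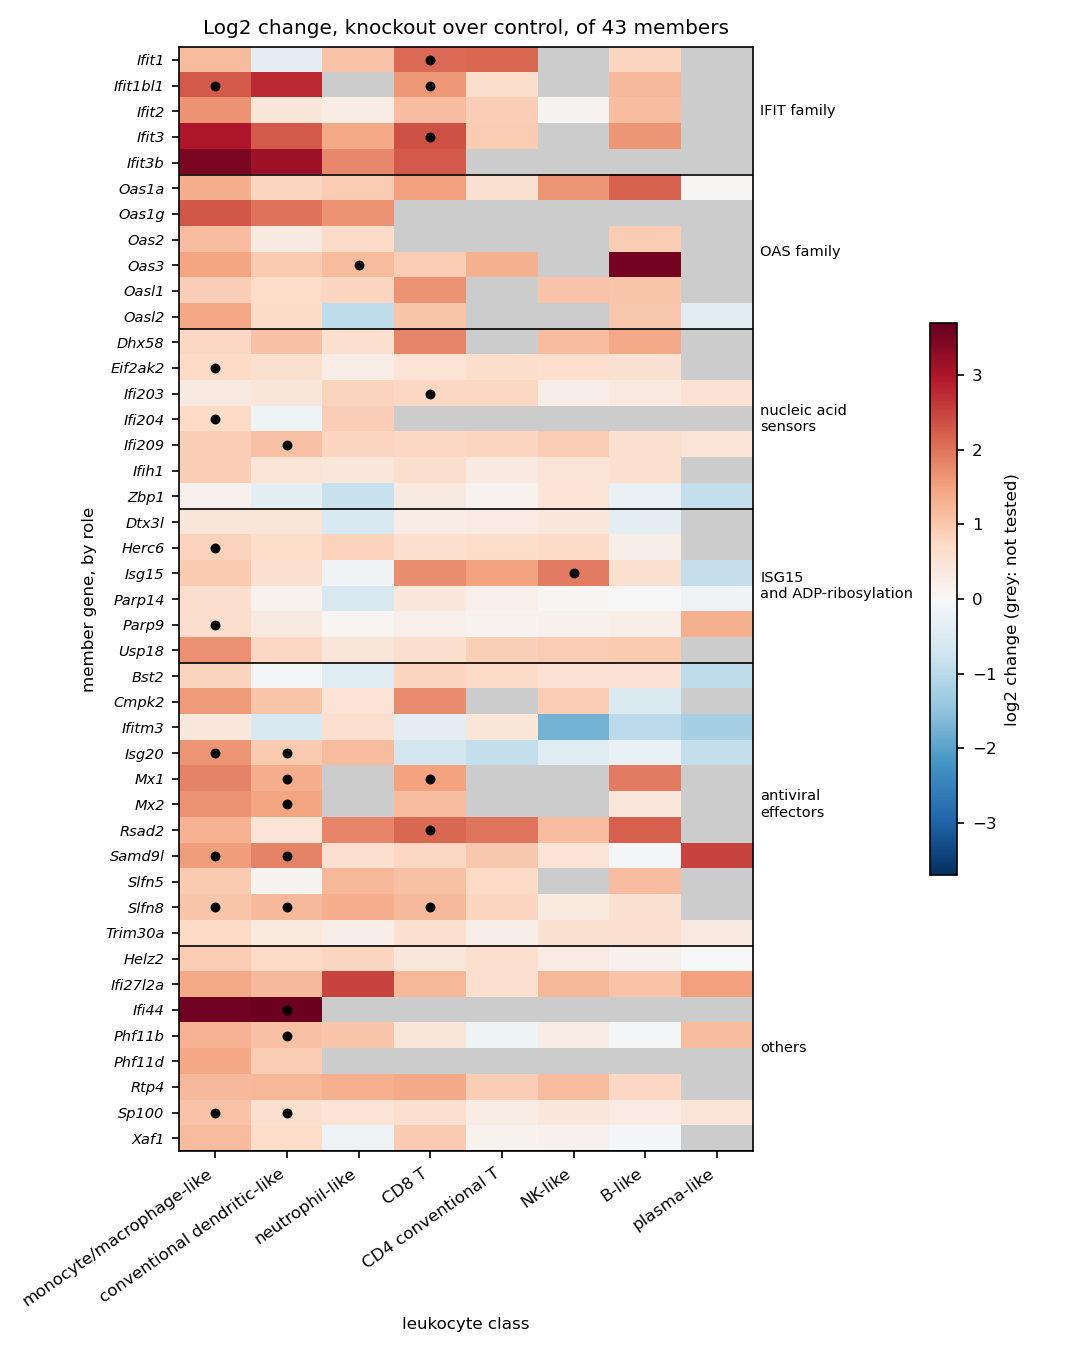
Log2 change of knockout over control for each of the 43 genes (rows, grouped by role) in the 8 tested leukocyte classes (columns). Colour gives the log2 change on the scale at the right, grey marks genes that were not tested, and black dots mark an adjusted p under 0.05. All 43 genes had a positive change in monocyte/macrophage-like cells and 36 of 38 in CD8 T cells, while plasma-like cells had 10 of 17.

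In monocyte/macrophage-like cells all 43 genes were tested and all 43 had a positive log2 change, with a median of 1.17 beside a median of 0.01 over the 14133 genes tested. Of the 43, 9 rose (Ifit1bl1, Isg20, Samd9l, Sp100, Slfn8, Herc6, Ifi204, Eif2ak2 and Parp9) and none fell, where 7.97% of all genes tested rose. In 41 of 43 both knockout values lay above both control values, which held for 32.6% of all genes tested, and the other two were Zbp1 and Oasl1. The gene with the lowest adjusted p was Samd9l, an antiviral factor that restrains translation, with 26.7 and 30.4 CPM in knockout mice and 11.4 and 8.21 CPM in control mice. Each knockout mouse had more than either control mouse (log2 change 1.54, SE 0.18, adjusted p = 0.00261 by edgeR's quasi-likelihood test). Ifit1bl1, a member of the IFIT family, had 5.44 and 9.61 CPM in knockout mice and 1.94 and 1.14 CPM in control mice (log2 change 2.28, SE 0.37, adjusted p = 0.00977). Isg20, an RNA exonuclease, had 40 and 54 CPM in knockout mice and 18.7 and 11.4 CPM in control mice (log2 change 1.64, SE 0.29, adjusted p = 0.0215). Knockout and control mice did not overlap in either gene. Sp100, a nuclear body protein, had 177 and 229 CPM in knockout mice and 109 and 88 CPM in control mice (log2 change 1.05, adjusted p = 0.00755). Slfn8, of the schlafen family, had 36 and 44.4 CPM in knockout mice and 22.2 and 17.3 CPM in control mice (log2 change 1.03, adjusted p = 0.00786). Herc6, the mouse ligase that attaches ISG15, had 22.6 and 29.4 CPM in knockout mice and 15 and 14 CPM in control mice (log2 change 0.84, adjusted p = 0.012). The remaining 3 changed less: Ifi204 by 0.74, Eif2ak2 by 0.73 and Parp9 by 0.66 on the log2 scale.

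The best known interferon targets in this class had log2 changes between 0.39 and 2.99 that did not pass the test. In each of the 10 genes of this paragraph control mouse 1 lay between control mouse 2 and the knockout mice. Ifit3 had 60.6 and 108 CPM in knockout mice and 17.7 and 3.5 CPM in control mice (log2 change 2.99, SE 1.11, adjusted p = 0.214). Mx1, a dynamin-like antiviral GTPase, had 29 and 47.2 CPM in knockout mice and 15.7 and 5.59 CPM in control mice (log2 change 1.84, adjusted p = 0.198). The control mice differed from each other several-fold in both genes, and both stayed below the knockout mice. Usp18, which removes ISG15 and dampens the receptor, had 31.6 and 58.3 CPM in knockout mice and 22.2 and 5.4 CPM in control mice (log2 change 1.70, adjusted p = 0.36). Ifi27l2a, a mitochondrial protein, had 2294 and 3443 CPM in knockout mice and 1665 and 509 CPM in control mice (log2 change 1.40, adjusted p = 0.315). Control mouse 2 was the lowest of the 4 in each of these. Oas1a had 133 and 173 CPM in knockout mice and 82.5 and 37.1 CPM in control mice (log2 change 1.35, adjusted p = 0.154), and Rsad2, the enzyme viperin, had 47.2 and 73.5 against 35 and 14.7 CPM (log2 change 1.28, adjusted p = 0.244). Isg15 had 326 and 534 CPM in knockout mice and 292 and 144 CPM in control mice (log2 change 0.98, adjusted p = 0.255), and Ifit1 had 11.1 and 18 against 9.49 and 3.3 CPM (log2 change 1.18, adjusted p = 0.314). Knockout mouse 1 was close to control mouse 1 in both Isg15 and Ifit1. Bst2 had 408 and 554 CPM in knockout mice and 347 and 200 CPM in control mice (log2 change 0.82, adjusted p = 0.141), and Ifitm3 4440 and 5434 against 3793 and 3721 CPM (log2 change 0.39, adjusted p = 0.11).

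By role, the median log2 change in these cells was 2.28 for the IFIT family, 1.40 for the OAS family, 1.28 for the antiviral effectors, 1.25 for the genes of other roles, 0.75 for ISG15 and its regulators with the ADP-ribosylation genes, and 0.74 for the nucleic acid sensors. Those that rose were 3 of 11 effectors, 2 of 7 sensors, 2 of 6 ISG15 and ADP-ribosylation genes, 1 of 5 IFIT genes and 1 of 8 others. The number that rose depended on which mice were in the fit: it was 6 without knockout mouse 1 (1.56% of all genes), 1 (Samd9l) without knockout mouse 2 (1.99%), 36 without control mouse 1 (11.4%) and 21 without control mouse 2 (10.4%), and it was 9 without the shared barcodes (7.99%). Without knockout mouse 2, Sp100 had an adjusted p of 0.0728 and Ifit1bl1 of 0.0831. DESeq2 called 23, and 6.89% of all genes higher. Dissociation stress genes moved with the genotype in the same cells: 6 of 15 rose (Jun, Dnajb1, Ier2, Hsp90aa1, Hspa1a and Hspa1b), and their summed level was 18961 and 19313 CPM in knockout mice and 14526 and 11172 CPM in control mice. Markers of other cells moved too: the 10 B-like markers, none of them at 0 in any mouse, summed to 309 and 269 CPM in knockout mice and 87 and 82.2 CPM in control mice, and the 9 T-like markers to 70.4 and 54.8 against 9.21 and 12.1 CPM. Their part in the result was not tested.

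In conventional dendritic-like cells all 43 genes were tested, 38 had a positive change, 9 rose (Ifi44, Samd9l, Mx2, Mx1, Slfn8, Phf11b, Ifi209, Isg20 and Sp100) and none fell, where 4.21% of all genes tested rose. The median change was 0.70, beside 0.03 over all 10415 genes tested. Ifi44, a cytosolic protein induced by interferon, had 12.5 and 12.9 CPM in knockout mice and 1.79 and 0 CPM in control mice, from 63 and 62 UMIs against 4 and 0 UMIs. Both knockout mice were far above both control mice (fitted log2 change 3.62, SE 0.60, adjusted p = 0.00802), and this size depends on the prior count for the control mouse at 0. Samd9l had 35.1 and 39.6 CPM in knockout mice and 12.1 and 8.61 CPM in control mice (log2 change 1.83, SE 0.24, adjusted p = 0.00327). Mx1 had 65.3 and 53.3 CPM in knockout mice and 19.7 and 27.6 CPM in control mice (log2 change 1.34, SE 0.21, adjusted p = 0.00637). Neither gene overlapped between the genotypes. Mx2 had 13.1 and 14.5 CPM in knockout mice and 5.82 and 4.02 CPM in control mice (log2 change 1.46, adjusted p = 0.0253). Slfn8 had 18.1 and 19.5 CPM in knockout mice and 10.7 and 5.17 CPM in control mice (log2 change 1.19, adjusted p = 0.0446). Phf11b, a zinc finger protein, had 252 and 258 CPM in knockout mice and 147 and 92.4 CPM in control mice (log2 change 1.08, adjusted p = 0.0151). The other 3 that rose had log2 changes between 0.60 for Sp100 and 1.07 for Ifi209, a member of the DNA-sensing PYHIN family. Ifitm3 went the other way and was not called. It had 1582 and 2586 CPM in knockout mice and 2998 and 3105 CPM in control mice (log2 change -0.55). The Xcr1-led cluster of this class held 176 and 115 of the 384 and 457 knockout cells. In control mice it held 39 and 30 of 208 and 196. The 43 genes had 27.5 and 26.2 UMIs per 10000 there in knockout mice and 21.6 and 17.8 in control mice. The Cd209a-led cluster had 62.7 and 80.2 against 65.8 and 56.9. The lowest member change was -0.21 within the Cd209a-led and -0.90 within the Xcr1-led cluster. The part of this makeup in the class values was not tested.

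The IFIT genes had the largest median change by role in these cells (2.27), but those that rose were 5 of 11 antiviral effectors, 3 of 8 genes of other roles and 1 of 7 sensors. In 32 of 43 genes both knockout values lay above both control values, against 28.8% of all genes tested. The number that rose was 22 without knockout mouse 1 (5.44% of all genes), 9 without knockout mouse 2 (6.92%), 12 without control mouse 1 (2.19%), 6 without control mouse 2 (1.91%) and 7 without the shared barcodes (3.57%). Without control mouse 2, Mx2, Isg20, Slfn8 and Sp100 were no longer called, with adjusted p-values of 0.114, 0.0766, 0.223 and 0.288. Stress genes rose here as well, 7 of 15 (Dnajb1, Hspa8, Fos, Hsp90aa1, Hspa1b, Hspa1a and Egr1), with a sum of 16918 and 18717 CPM in knockout mice and 14346 and 12761 CPM in control mice. The B-like markers summed to 326 and 508 CPM in knockout mice, against 127 and 171 CPM in control mice. Their part was not tested.

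CD8 T cells were those T-like cells in which Cd8a or Cd8b1 but no Cd4 was detected. In this class 38 of the 43 genes were tested, 36 had a positive change, 7 rose and none fell, where 0.561% of all genes tested rose. The 7 were Ifit3, Rsad2, Ifit1, Ifit1bl1, Mx1, Slfn8 and Ifi203, so 3 of the 5 IFIT genes rose in this class. The median change was 0.95, beside -0.01 over all 10516 genes. In 33 genes both knockout values lay above both control values, against 23.7% of all genes tested. Ifit3 had 46.7 and 42.6 CPM in knockout mice and 11.3 and 6.08 CPM in control mice. The knockout mice lay close to each other and several-fold above both control mice (log2 change 2.37, SE 0.27, adjusted p = 0.0114 by edgeR's quasi-likelihood test). Ifit1 had 25.5 and 29.5 CPM in knockout mice and 8.2 and 4.65 CPM in control mice (log2 change 2.10, SE 0.29, adjusted p = 0.0209). Ifit1bl1 had 25.3 and 25 CPM in knockout mice and 7.42 and 8.94 CPM in control mice (log2 change 1.61, SE 0.23, adjusted p = 0.021). Neither gene overlapped between the genotypes. Rsad2 had 11.9 and 9.36 CPM in knockout mice and 3.13 and 1.79 CPM in control mice (log2 change 2.12, SE 0.40, adjusted p = 0.0452). Mx1 had 21.1 and 17.6 CPM in knockout mice and 6.64 and 7.15 CPM in control mice (log2 change 1.49, SE 0.26, adjusted p = 0.0352). Slfn8, whose family restrains translation, had 33.9 and 33.6 CPM in knockout mice and 15.2 and 14.3 CPM in control mice (log2 change 1.19, SE 0.19, adjusted p = 0.0288). Ifi203, of the PYHIN family, had the smallest change of the 7, with 203 and 202 CPM in knockout mice and 123 and 113 CPM in control mice (log2 change 0.78, SE 0.15, adjusted p = 0.0492).

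Other targets in CD8 T cells were high in knockout mice without passing the test. Isg15 had 290 and 271 CPM in knockout mice and 120 and 49 CPM in control mice (log2 change 1.73, adjusted p = 0.153). It was above every control value in both knockout mice, and it passed in fits without control mouse 1 (adjusted p = 2.12e-06) and without control mouse 2 (adjusted p = 1.43e-04). Ifi27l2a had 720 and 1082 CPM in knockout mice and 492 and 283 CPM in control mice (adjusted p = 0.14), Bst2 197 and 233 against 154 and 94.4 CPM (adjusted p = 0.162), and Oas1a 14 and 20.4 against 8.2 and 3.93 CPM (adjusted p = 0.108). The genotypes were apart in these 3 genes. Usp18 overlapped, at 14.2 and 21.1 CPM in knockout mice and 17.2 and 5.36 CPM in control mice (adjusted p = 0.588), and so did Ifitm3, at 13 and 38.4 against 8.99 and 53.6 CPM (log2 change -0.32, adjusted p = 0.925). The Ifitm3 level in CD8 T cells was no higher than free RNA from other cells would give, and its sign changed without knockout mouse 1 (0.32) or without control mouse 2 (1.496).

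**Figure D3:**
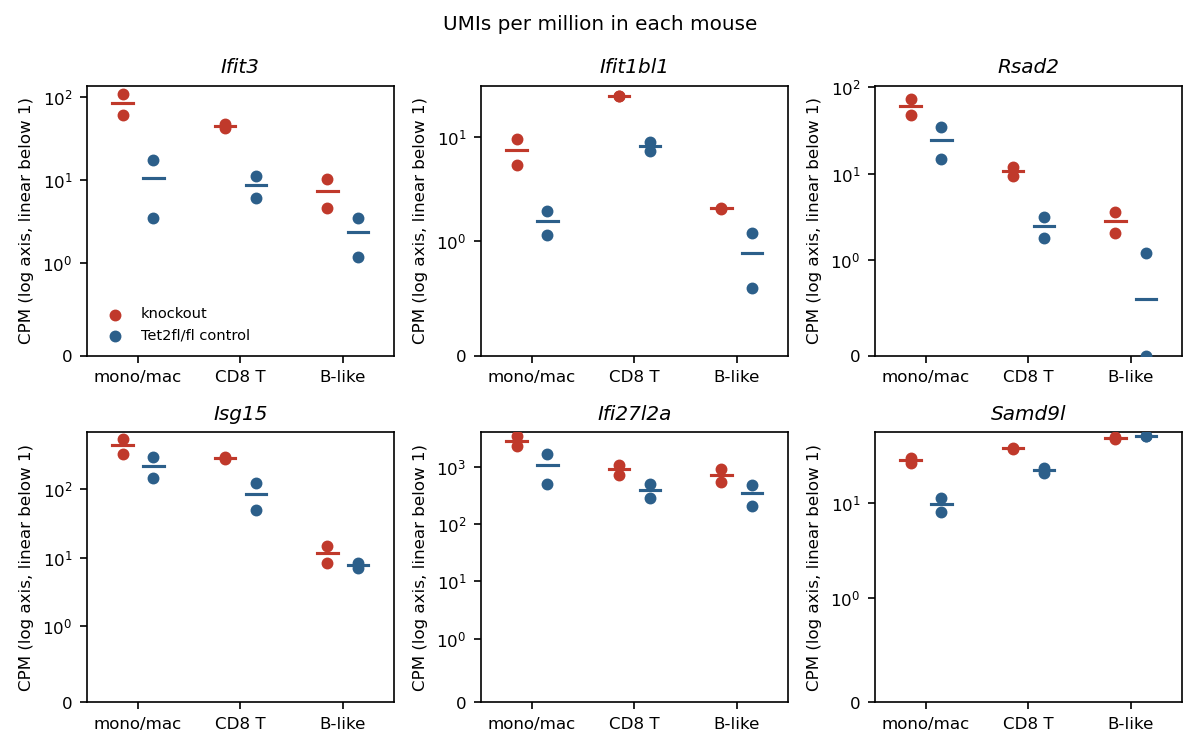
CPM of 6 of the genes (1 panel each; vertical axis linear below 1 and logarithmic above) in monocyte/macrophage-like, CD8 T and B-like cells, with 1 point per mouse, the knockout points left of the control points and a short line at each mean. In CD8 T cells Ifit3 stood at 46.7 and 42.6 in knockout mice against 11.3 and 6.08 in control mice, while in monocyte/macrophage-like cells the 2 control mice were far apart.

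The number that rose in CD8 T cells was 3 without knockout mouse 1 (0.291% of all genes), 7 without knockout mouse 2 (0.814%), 26 without control mouse 1 (6.71%), 13 without control mouse 2 (2.25%), and 4 without the shared barcodes (0.547%). In that last fit Rsad2, Mx1 and Ifi203 had adjusted p-values of 0.0519, 0.0613 and 0.0549. Without knockout mouse 1, Ifit1bl1 had an adjusted p of 0.0578, Slfn8 of 0.129 and Mx1 of 0.238. The summed level of the 15 stress genes was 15568 and 16287 CPM in knockout mice and 12068 and 8195 CPM in control mice. The 13 neutrophil-like markers went the other way, with 22.3 and 21.6 CPM in knockout mice and 257 and 189 CPM in control mice. Their part in the result was not tested.

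The makeup of CD8 T cells differed between the genotypes, so the interferon genes were also compared within their states. The 2 states compared were separated by sub-clusters that were formed without the 43 genes, the naive-like ones with at least 3 of 6 naive T cell markers, among them Ccr7, Lef1 and Tcf7, and all others. In the naive-like cells 0 of 33 tested members rose by edgeR, where 0.511% of all genes rose, with a median change of 0.37. At an unadjusted p under 0.05, 10 members were higher and 1 lower, and 11.1% of all genes had such a p in either direction. DESeq2 was not run within states. Within single naive-like sub-clusters, 1 of 27 tested members rose in the one with 4 of these markers, where 0.82% of all genes did. In the one with all 6 0 of 21 rose by edgeR, where 0.516% of all genes did, and 4 were higher at an unadjusted p under 0.05. In the other states 18 of 36 rose, where 3.58% of all genes rose, with a median of 1.02. Ifit3 in the other states had 64 and 56.8 CPM in knockout mice and 14.4 and 5.07 CPM in control mice (log2 change 2.79, adjusted p = 0.00239). Slfn8 there had 48.9 and 45.6 CPM in knockout mice and 12.6 and 13.7 CPM in control mice (log2 change 1.83, adjusted p = 0.00157), but its log2 change in the naive-like cells was -0.28. Cmpk2, a mitochondrial nucleotide kinase next to Rsad2, had 24 and 20.6 CPM in knockout mice and 8.11 and 2.53 CPM in control mice in the other states (log2 change 2.25, adjusted p = 0.0134). The difference between the 2 states was not tested. In the other states the stress genes summed to 18966 and 19104 CPM in knockout mice and 12612 and 8263 CPM in control mice, and in the naive-like cells to 11026 and 11516 against 11678 and 8001 CPM.

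Within the other states the cells were not the same in both genotypes. A sub-cluster led by Ccl4, Klrc1 and Gzmb held 33.9 and 33.2% of CD8 T cells in knockout mice and 7.46 and 2.03% in control mice. Its IFIT level was 1.37 and 1.71 UMIs per 10000 in knockout mice against 0.415 and 0 in control mice. The control values rest on 40 and 12 cells, and the knockout values on 438 and 364. A sub-cluster led by Itga1, Ifit1bl1, Klrk1 and Cd160 held 25.1 and 24.3% in knockout mice and 5.78 and 4.39% in control mice of CD8 T cells. Its IFIT level overlapped between the genotypes, at 2.22 and 2.33 in knockout mice and 2.68 and 1.37 in control mice, where it held 31 and 26 control cells. A Gzmk-led sub-cluster held 0.464 and 0.822% in knockout mice and 7.84 and 41.7% in control mice. The count of 18 within the other states covers such shifts of makeup as well as changes within a sub-cluster.

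The share of cells with any IFIT UMI was compared after every cell was thinned to 1000 UMIs, which left out at most 33 shallower cells of a class in any mouse. It was 8.23 and 10.2% of CD8 T cells in knockout mice (exact 95% intervals 6.79 to 9.87 and 8.44 to 12.1) and 2.8 and 2.74% in control mice (1.57 to 4.57 and 1.57 to 4.41). These intervals cover counting error only and do not overlap between the genotypes. In naive-like CD8 T cells the shares overlapped, at 4.63 and 2.69% in knockout mice and 1.88 and 3.75% in control mice, while in the other states they were 10 and 13.5% against 4.15 and 2.36%. Among monocyte/macrophage-like cells the share was 6.77 and 14% in knockout mice and 2.59 and 1.34% in control mice, and among B-like cells 1.05 and 1.55% against 0.587 and 0.496%. Before thinning, the pooled share in CD8 T cells was 26.8% in knockout mice and 8.85% in control mice, and in monocyte/macrophage-like cells 34.2 and 10.2%. Isg15 had a UMI in 17 and 19.3% of thinned CD8 T cells in knockout mice and in 7.28 and 4.45% in control mice, against 0.642 and 1.31% of B-like cells in knockout mice and 0.734 and 0.661% in control mice. Median depth before thinning was 4646 and 4500 UMIs in knockout CD8 T cells, 4316 and 3893 in control ones, 3063 and 2872 in knockout B-like cells and 2208 and 2413 in control ones. Ifitm3, at 92.9 and 95.7% of thinned monocyte/macrophage-like cells in knockout mice and 86.1 and 89.6% in control mice, was found in 1.1 and 1.78% of B-like cells in knockout mice and 2.06 and 2.64% in control mice, which is the level read as background.

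NK-like cells had 1 call. Isg15 had 150 and 146 CPM in knockout mice and 41.8 and 34.8 CPM in control mice, with both genotypes tight and far apart (log2 change 1.92, SE 0.17, adjusted p = 6.66e-04). This was the lowest adjusted p of any member in the 8 classes. Of 29 members tested, 27 had a positive change, with a median of 0.51, and 0.554% of all genes rose. The number that rose was 3 without knockout mouse 1 (0.675% of all genes), 1 without knockout mouse 2 (0.662%), 10 without control mouse 1 (3.83%) and 4 without control mouse 2 (1.82%). The 9 T-like markers summed to 484 and 427 CPM in knockout NK-like cells and 273 and 283 CPM in control ones, and the 10 B-like markers to 278 and 291 against 112 and 188 CPM. Their part in the result was not tested. In neutrophil-like cells 1 of 38 members rose, where 3.32% of all genes did. Oas3, which makes the long oligoadenylates that activate RNase L, had 87.1 and 87.1 CPM in knockout mice and 47.3 and 30.4 CPM in control mice (log2 change 1.16, SE 0.29, adjusted p = 0.0387). It was no longer called without knockout mouse 1 (adjusted p = 0.182) or without control mouse 2 (adjusted p = 0.0582). Within the Retnlg-led cluster, the only neutrophil-like one with enough cells in each mouse, Oas3 overlapped, at 82.5 and 100 CPM in knockout mice and 90.8 and 46.5 CPM in control mice, and was not called (log2 change 0.36, adjusted p = 0.611). The B-like markers summed to 351 and 726 CPM in knockout neutrophil-like cells, against 124 and 80.6 CPM in control ones, and their part was not tested. The number of members that rose was 0 without knockout mouse 1 (1.1% of all genes), 5 without knockout mouse 2 (4.94%), 14 without control mouse 1 (7.72%) and 2 without control mouse 2 (5.15%), where 3 others fell (5.28%). Ifi27l2a had 1723 and 1987 CPM in knockout neutrophil-like cells and 520 and 140 CPM in control ones (log2 change 2.49, adjusted p = 0.0688), while Oasl2 was on the other side, at 85.9 and 134 against 260 and 154 CPM (log2 change -0.93, adjusted p = 0.131).

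In B-like, CD4 conventional T and plasma-like cells no member was called by edgeR. B-like cells were the most numerous class in knockout mice, with 4388 and 4934 cells against 687 and 617 in control mice, and 0.0348% of all genes rose there. Of 38 members tested 30 had a positive change, with a median of 0.58, and 10 were higher and 1 lower at an unadjusted p under 0.05. Such a p in either direction held for 11.1% of all genes. DESeq2 called 0 members. Without knockout mouse 1, 2 members rose by edgeR (0.388% of all genes), without control mouse 1, 3 did (6.09%), and without knockout mouse 2, 1 fell (0.485%). Ifi27l2a, the most abundant member in 3 of the 4 mice and close to Sp100 in control mouse 2, had 546 and 898 CPM in knockout mice and 487 and 209 CPM in control mice (log2 change 1.05, adjusted p = 0.425). Oas1a had 9.1 and 12.5 CPM in knockout mice and 3.56 and 1.19 CPM in control mice (log2 change 2.18, adjusted p = 0.176). The genotypes were apart in both genes. Bst2 had 73.5 and 101 CPM in knockout mice and 65.3 and 54 CPM in control mice (adjusted p = 0.404). The other named genes were scarce: Ifit3 had 4.62 and 10.2 CPM in knockout mice and 3.56 and 1.19 CPM in control mice, Mx1 2.31 and 4.51 against 0.594 and 1.19 CPM, Rsad2 2.04 and 3.55 against 0 and 1.19 CPM, and Usp18 3.76 and 5.52 against 2.37 and 2.37 CPM. Ifit1 overlapped between the genotypes, at 0.593 and 1.46 CPM in knockout mice and 1.19 and 0 CPM in control mice. Isg15 had 8.37 and 14.9 CPM in knockout mice and 8.31 and 7.12 CPM in control mice, and free RNA was estimated to give 26.6% of the level in the higher group. Ifitm3, at 10.8 and 21.8 CPM in knockout mice and 40.4 and 23.7 CPM in control mice (log2 change -0.97, adjusted p = 0.427), lay at a level that free RNA could give (141%).

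In CD4 conventional T cells 29 of 31 tested members had a positive change, with a median of 0.66. By edgeR 0 of them were called at an adjusted p under 0.05, where 0.0124% of all genes rose, and 8 were higher and 1 lower at an unadjusted p under 0.05. Such a p in either direction held for 11.1% of all genes. DESeq2 called 1 member higher, where it called 1.19% of the 1759 genes with an adjusted p higher. By edgeR 1 member rose without knockout mouse 2 (0.957% of all genes), and 2 did without control mouse 1 (2.48%). Isg15 had 447 and 194 CPM in knockout mice and 139 and 94.4 CPM in control mice (log2 change 1.48, adjusted p = 0.296). Isg20, by contrast, had less in each knockout mouse, with 69.2 and 39.2 CPM against 110 and 93.2 CPM in control mice (log2 change -0.88, adjusted p = 0.303). In plasma-like cells 10 of 17 tested members had a positive change, with a median of 0.06, and 4 were higher and 4 lower at an unadjusted p under 0.05. Such a p in either direction held for 18.6% of all genes. By adjusted p, the background was 0.243% of genes that rose. Bst2 was lower there, at 176 and 182 CPM in knockout mice and 398 and 283 CPM in control mice (log2 change -0.93, adjusted p = 0.0805). These values rest on 50 and 49 cells in knockout mice and 66 and 38 in control mice, and DESeq2 called 1 member higher and 1 lower. B-like markers summed to 8401 and 8944 CPM in knockout plasma-like cells and 2121 and 3349 CPM in control ones, and the 15 monocyte/macrophage-like markers to 1386 and 1134 against 3348 and 1818 CPM. Their part in these values was not tested.

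Whether the genotype effect differed between classes was tested directly, each class against monocyte/macrophage-like cells of the same mice, with the mouse as a block. A gene was counted only where it had also been tested in both classes on their own. No member differed between CD8 T and monocyte/macrophage-like cells by edgeR at an adjusted p under 0.05, where 1.39% of all genes had a larger and 2.78% a smaller effect in CD8 T cells. At an unadjusted p under 0.05, 4 members had a larger and 4 a smaller effect in CD8 T cells, and 16.9% of all genes had such a p in either direction. DESeq2 was not run on this term. In B-like cells 4 members had a smaller effect, where 2.69% of all genes did and 1.9% had a larger one: Isg20 (difference -1.86 on the log2 scale, SE 0.29, adjusted p = 0.00483), Samd9l (-1.53), Phf11b (-1.37) and Xaf1 (-1.19). Isg20 and Phf11b also had a smaller effect in CD4 conventional T cells (-2.59 and -1.52), where 2.55% of all genes did. In conventional dendritic-like cells Ifit1 (-1.63), Ifit2 (-1.24) and Ifitm3 (-1.04) had a smaller effect, where 2.3% of all genes did. The clusters of that class held unequal shares of the genotypes, and their part in these differences was not tested. In neutrophil-like cells Oasl2 (-2.42, adjusted p = 2.11e-05), Xaf1 (-1.28) and Bst2 (-1.23) had a smaller effect, where 1.92% of all genes did, and Ifi27l2a had a larger one (1.19), where 3.71% did. Free RNA was estimated to give 32.7% of the Xaf1 and 73.9% of the Bst2 level of the higher group in neutrophil-like cells.

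Because clusters held unequal numbers of each genotype, the fits were repeated within every cluster with at least 30 cells in each mouse. Knockout monocyte/macrophage-like cells lay mostly in a C1qc-led cluster, a Vcan and Ly6c2 monocyte cluster and an Ace-led one. The C1qc-led cluster held 339 and 418 cells in knockout mice against 1844 and 1797 in control mice. The Vcan and Ly6c2 cluster held 334 and 442 against 2207 and 3116, and the Ace-led one 224 and 202 against 253 and 242. The first leading gene of the C1qc-led cluster was Gbp2b, of the interferon-inducible GBP family, which had not been left out of the clustering. In the cluster led by Arg1, Ccl24 and Spp1, with 69 and 102 knockout cells against 1970 and 1470 control cells, 23 of 41 tested members rose, where 5.21% of all genes did, and the median change was 1.56. Isg15 had 904 and 841 CPM in knockout mice and 293 and 212 CPM in control mice within it (log2 change 1.79, adjusted p = 2.61e-04). Parp14, a mono-ADP-ribosyltransferase, had 103 and 115 CPM in knockout mice and 33.6 and 33.3 CPM in control mice (log2 change 1.71, adjusted p = 2.02e-04). Both genes were tight within a genotype, and both had been uncalled over the whole class. Ifit2 had 39.1 and 25.8 CPM in knockout mice and 8.22 and 4.96 CPM in control mice (log2 change 2.24, adjusted p = 0.00261), and Isg20 had 86.9 and 43.3 against 12.5 and 7.73 CPM (log2 change 2.62, adjusted p = 0.00494). In the C1qc-led cluster 9 of 43 rose, where 3.63% of all genes did (median 0.97). In the Vcan and Ly6c2 monocyte cluster 10 of 43 rose, where 9.65% did (median 1.21), and these included Ifitm3, at 6494 and 7300 CPM in knockout mice against 5397 and 4439 CPM in control mice (log2 change 0.49, adjusted p = 0.0318). In the Ace-led monocyte cluster 12 of 40 rose, where 6.5% did (median 0.94).

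**Figure D4:**
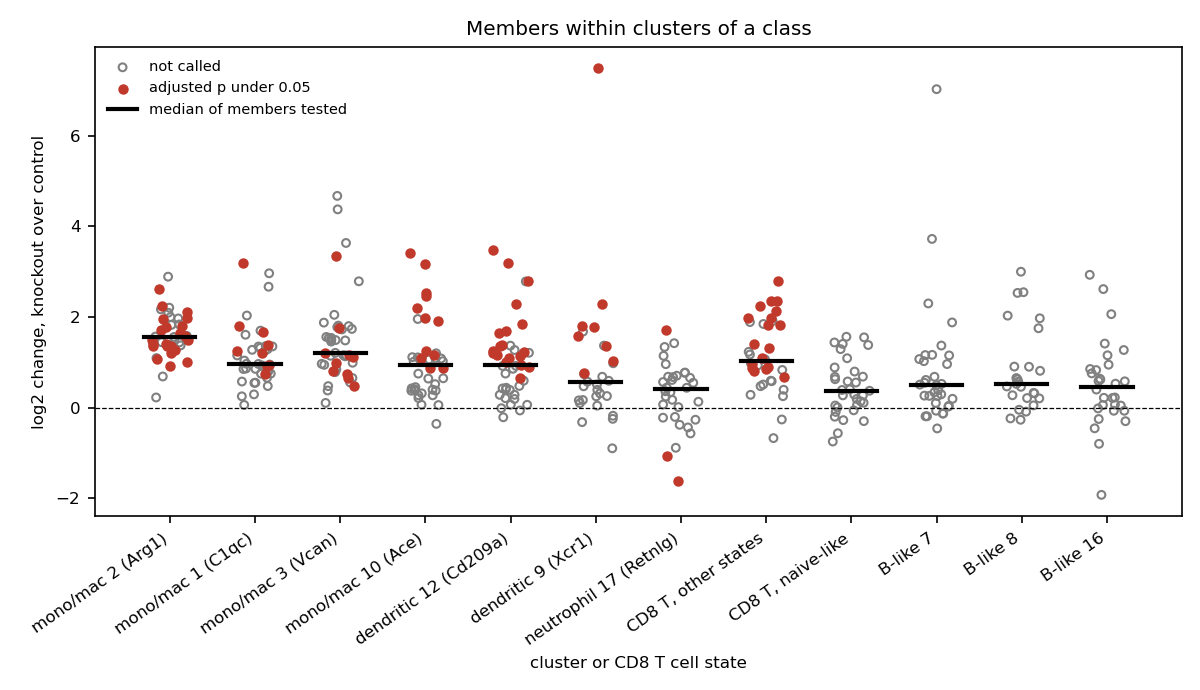
Log2 change of knockout over control for each tested gene (points) within clusters and CD8 T cell states (horizontal axis), with filled points for an adjusted p under 0.05, open points for the rest, a black bar at the median and a dashed line at 0. In the Arg1-led cluster 23 of 41 genes were called and in the other CD8 T cell states 18 of 36, against 0 of 33 in naive-like CD8 T cells.

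Among dendritic cells, 19 of 43 members rose in the Cd209a-led cluster, where 6.58% of all genes did (median 0.94), more than in the class as a whole. Rtp4, a chaperone for receptors, had 87.8 and 105 CPM in knockout mice and 39.9 and 18.5 CPM in control mice within it (log2 change 1.69, adjusted p = 0.00252). Isg15 had 234 and 331 CPM in knockout mice and 164 and 139 CPM in control mice (log2 change 0.90, adjusted p = 0.00575). In the Xcr1-led cluster 8 of 29 rose, where 3.51% did (median 0.57). Mx1 had 96.4 and 93.3 CPM in knockout mice and 26.6 and 27.4 CPM in control mice there (log2 change 1.81, adjusted p = 3.35e-05), and Ifi27l2a 450 and 485 against 114 and 72.2 CPM (log2 change 2.29, adjusted p = 8.16e-10). Ifi44 in this cluster had 17.6 and 16.5 CPM in knockout mice and none in control mice, so no fold is given. In the Retnlg-led cluster, which held 518 and 222 neutrophil-like cells in knockout mice and 657 and 379 in control mice, beside 6 and 37 against 1068 and 747 cells in a cluster led by Il23a and Cxcl3, 1 of 32 tested members rose and 2 fell, where 2.5% of all genes rose and 3.84% fell. Ifi27l2a rose, with 1733 and 2340 CPM in knockout mice and 909 and 329 CPM in control mice (log2 change 1.71, adjusted p = 0.0378). Oasl2 fell there, with 79.9 and 135 CPM in knockout mice and 338 and 307 CPM in control mice (log2 change -1.62, adjusted p = 0.00479), and so did Zbp1, a sensor of Z-form nucleic acid, with 36.6 and 59.6 against 91.8 and 102 CPM (log2 change -1.08, adjusted p = 0.0476). Free RNA was estimated to give 26.8% of the Zbp1 level of the higher group over all neutrophil-like cells. In the 3 B-like clusters, where 0.0288, 0.0367 and 0.0967% of all genes rose, no member was called by edgeR. At an unadjusted p under 0.05 the higher members numbered 3, 10 and 8 and the lower ones 0 in each. Such a p in either direction held for 9.73, 9.37 and 8.65% of all genes in the same order. DESeq2 was not run within clusters.

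The ligands themselves were nearly absent from the libraries. Of 20 interferon genes in the ligand list, 16 and 17 had no UMI in the knockout libraries and 15 and 17 had none in the control libraries, and Ifnb1 had 6 and 8 UMIs in knockout libraries and 19 and 4 in control libraries. In monocyte/macrophage-like cells Ifnb1, the gene of interferon beta, had 6 and 7 UMIs in knockout mice (0.64 and 0.724 CPM) and 11 and 1 in control mice (0.178 and 0.0168 CPM), was not called (adjusted p = 0.074) and rests on few counts. It was the sole ligand gene with enough UMIs to be tested in any class. Of 8 receptor and signalling genes, Irf7 rose in CD8 T cells and Stat2 in monocyte/macrophage-like cells, and none fell in either class, where 0.561% and 7.97% of all genes rose. Irf7, the factor that amplifies interferon production, rose in CD8 T cells, with 94.7 and 110 CPM in knockout mice and 46.1 and 34.7 CPM in control mice (log2 change 1.34, SE 0.19, adjusted p = 0.021). In monocyte/macrophage-like cells Irf7 had 359 and 516 CPM in knockout mice and 145 and 54.5 CPM in control mice (log2 change 2.14, adjusted p = 0.127). Stat2 rose in monocyte/macrophage-like cells, at 55.8 and 73.9 CPM in knockout mice against 43.7 and 36.5 CPM in control mice (log2 change 0.69, adjusted p = 0.0301). Irf9 had 50.9 and 68.5 CPM in knockout mice and 49.2 and 42.3 CPM in control mice (log2 change 0.38, adjusted p = 0.147). The receptor genes were close to even in this class, with 50.6 and 51.3 CPM of Ifnar1 in knockout mice against 49.9 and 55.3 CPM in control mice (log2 change -0.04, adjusted p = 0.815), and 294 and 287 against 260 and 244 CPM of Ifnar2 (log2 change 0.21, adjusted p = 0.256).

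Of 13 sensors that act upstream of interferon, 3 rose and 1 fell in monocyte/macrophage-like cells, where 7.97% of all genes rose and 9.01% fell. Tlr7, the endosomal receptor for single-stranded RNA, had 51.9 and 48.1 CPM in knockout mice and 20.6 and 16.9 CPM in control mice (log2 change 1.41, adjusted p = 0.00143). Tlr9, its DNA-sensing relative, had 14.6 and 16.7 CPM in knockout mice and 6.45 and 5.42 CPM in control mice (log2 change 1.40, adjusted p = 0.00254). Aim2 rose by 0.61, while Sting1, the adaptor for cyclic dinucleotides, fell, with 62.6 and 72.5 CPM in knockout mice and 98.2 and 119 CPM in control mice (log2 change -0.69, adjusted p = 0.0178). In conventional dendritic-like cells Tlr3 rose (log2 change 1.36, adjusted p = 0.0306) and Myd88 fell (log2 change -0.99, adjusted p = 0.0115). Of 8 negative regulators, Adar, the RNA-editing enzyme that limits sensing of self RNA, rose in monocyte/macrophage-like cells (log2 change 0.66, adjusted p = 0.0283). Socs3, a feedback inhibitor of cytokine receptors, fell there, with 113 and 167 CPM in knockout mice and 332 and 329 CPM in control mice (log2 change -1.24, adjusted p = 0.00668). It also fell in neutrophil-like cells, with 119 and 124 against 429 and 386 CPM (log2 change -1.74, adjusted p = 0.00535). The clusters of the neutrophil-like class held unequal numbers of each genotype, and their part in this fall was not tested.

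On the interferon gamma side, 3 of 14 genes rose in monocyte/macrophage-like cells (Cxcl9, Ifng and Irgm1) and none fell, where 7.97% of all genes rose and 9.01% fell. Cxcl9, a chemokine that draws CXCR3+ T cells, had 337 and 223 CPM in knockout mice and 152 and 157 CPM in control mice (log2 change 0.86, adjusted p = 0.0299), and the Ifng level there was within what free RNA could give. In conventional dendritic-like cells Ifngr1, a chain of the interferon gamma receptor, and Ifng rose and none of the list fell, where 4.21% of all genes rose and 4.64% fell. Ifngr1 had 442 and 385 CPM in knockout mice and 270 and 304 CPM in control mice (log2 change 0.53, adjusted p = 0.0386). The Ifng level was again within what free RNA could give. In neutrophil-like cells Cxcl9 fell, with 0.627 and 1.38 CPM in knockout mice and 36.5 and 21 CPM in control mice (log2 change -4.97, adjusted p = 0.0032). The knockout values lie near the floor, so the size of this change is uncertain. The neutrophil-like cluster led by Il23a and Cxcl3 held 6 and 37 cells in knockout mice and 1068 and 747 in control mice. Its part in the fall was not tested. In B-like cells Irf7 had 50.8 and 82.1 CPM in knockout mice and 38.6 and 11.9 CPM in control mice (log2 change 1.40, adjusted p = 0.376).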

How the data were processed

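The deposited gene expression matrices of 4 mice hold raw UMI counts, which the authors did not scale, for each gene in each barcode. Per the submitters' processing notes, they came from Cell Ranger 8.0.1 on GRCm39, with Seurat 5.0.1 and R 4.4.1 also named, and cell calling settings were not given in the sources used here. The 4 receptor libraries were not used here. Depth per library is given in the report, and the intervals cover counting error only.

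Barcodes were kept from 200 genes upwards if mitochondrial UMIs did not exceed 10%, and doublets called per library by Scrublet in scanpy 1.11.5 (2.88 to 4.06%) were removed. Cells were clustered (2000 variable genes, 30 components, 20 neighbours, Leiden resolution 1 in leidenalg 0.10.2) without the 43 genes and the pathway lists. Clusters were named from marker lists, with at least 3 markers at a fold of 2, and rules for ambiguous clusters were set after the clusters had been seen. Counts were summed per mouse and class and tested by edgeR 4.0.16 (quasi-likelihood, robust, filterByExpr, TMM, two-sided, Benjamini-Hochberg over all genes of a class, threshold 0.05), with DESeq2 1.42.0 among the alternatives. The class by genotype term was fitted for each class with monocyte/macrophage-like cells, with the mouse as a block, and counting only genes tested in both classes alone was chosen after seeing the data. The p-values measure the spread between 2 mice per genotype. The class fits, but not the class by genotype term, were tested on simulated data. Of simulated 2-fold changes, 6% were recovered in plasma-like, 7% in neutrophil-like and 16% in CD4 conventional T cells. In the other classes 43 to 52% of them were recovered. Of 4-fold changes, 57 to 96% were recovered over all classes. Each class held 100 changes of each size. False calls in the same fits numbered 17 in CD8 T, 16 in NK-like and 11 in monocyte/macrophage-like cells. They numbered 9 each in B-like and CD4 conventional T, 7 in conventional dendritic-like, 6 in neutrophil-like and 4 in plasma-like cells. Free RNA was estimated from markers of absent lineages. Transcripts of related genes were aligned with blastn 2.17.0.

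The members and lists were chosen with earlier results of these data known. In each class the called members are named. Values per mouse are given for the 6 largest changes among them and for Ifit1, Ifit3, Isg15, Mx1, Oas1a, Rsad2, Usp18, Ifi27l2a, Ifitm3 and Bst2 in CD8 T, monocyte/macrophage-like and B-like cells. Pathway genes that were called are mostly named, and Irf7, Stat2, Irf9, Ifnar1, Ifnar2 and Ifnb1 in any case. Some pathway and marker genes are not reported here. Genes named outside these rules, within clusters and in the smaller classes, were chosen after their values were seen. The alternatives without shared barcodes and within every cluster were added after seeing the data.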

Additional observations from a re-analysis of the deposited data

Results flagged for a closer look

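The 20 differences below passed the test of the genotype effect in a class against that in monocyte/macrophage-like cells. Each compares the log2 change in the class with that in monocyte/macrophage-like cells. It was estimated in a joint fit of both classes, so it can differ somewhat from the separate log2 changes subtracted. A negative value means a smaller rise, or a fall, in knockout cells of that class.

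In B-like cells the differences were -1.86 for Isg20, -1.53 for Samd9l, -1.37 for Phf11b and -1.19 for Xaf1. In CD4 conventional T cells they were -2.59 for Isg20 and -1.52 for Phf11b. In NK-like cells, where 3.41% of all genes had a smaller effect, they were -1.44 for Ifit2, -1.01 for Samd9l and -0.63 for Sp100. In conventional dendritic-like cells, whose clusters held unequal shares of the genotypes, the differences were -1.63 for Ifit1, -1.24 for Ifit2 and -1.04 for Ifitm3. In neutrophil-like cells they were -2.42 for Oasl2, -1.28 for Xaf1 and -1.23 for Bst2, and 1.19 for Ifi27l2a. Free RNA was estimated to give 32.7% of the Xaf1 and 73.9% of the Bst2 level of the higher group in neutrophil-like cells.

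In plasma-like cells, where 2.14% of all genes had a smaller effect, the differences were -2.55 for Isg20, -1.82 for Isg15, -1.79 for Bst2 and -1.09 for Zbp1. Leaving out the shared barcodes kept 24 and 41 of these cells in knockout mice and 40 and 10 in control mice. The differences were not refitted without those barcodes. The estimated share of free RNA in plasma-like cells was 15.7 and 2.01% in knockout mice and 20.2 and 7.87% in control mice, and it was estimated to give 59.3% of the Isg15 and 27.9% of the Zbp1 level of the higher group there.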

How the results depend on the processing

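Of 938 comparisons of named members with an alternative, 797 kept their direction and side of the threshold. Of the rest, 93 were no longer called, 41 were newly called and 7 changed sign. Members not called in the main fit were among the 938, and staying uncalled counted as kept. Only called members could be lost, so the 93 belong to a smaller base than 938. With 1 mouse left out, the numbers of members that rose ranged from 0 to 3 in B-like, 0 to 2 in CD4 conventional T, 3 to 26 in CD8 T, 1 to 10 in NK-like, 6 to 22 in conventional dendritic-like, 1 to 36 in monocyte/macrophage-like and 0 to 14 in neutrophil-like cells. The shares of all genes that rose in those fits ranged from 0.199 to 6.09%, 0.0667 to 2.48%, 0.291 to 6.71%, 0.662 to 3.83%, 1.91 to 6.92%, 1.56 to 11.4% and 1.1 to 7.72% in the same order of classes. Some of these fits also called members lower, in B-like, CD8 T, NK-like, conventional dendritic-like, plasma-like and neutrophil-like cells. The median member change then ranged from 0.15 to 0.70 in B-like, 0.42 to 1.01 in CD4 conventional T, 0.78 to 1.19 in CD8 T, 0.40 to 0.90 in NK-like, 0.47 to 1.08 in conventional dendritic-like, 0.80 to 1.83 in monocyte/macrophage-like and -0.35 to 0.45 in plasma-like cells. The numbers of members whose effect differed from monocyte/macrophage-like cells then ranged from 5 to 10 in B-like, 2 to 6 in CD4 conventional T, 0 to 10 in CD8 T, 0 to 6 in NK-like, 0 to 5 in conventional dendritic-like, 1 to 7 in neutrophil-like and 2 to 5 in plasma-like cells, and the shares of all genes that differed from 2.53 to 20.2%, 1.99 to 8.69%, 0.95 to 17%, 1.33 to 9.37%, 1.52 to 4.86%, 0.26 to 8.46% and 2.64 to 3.9% in that order. Counting genes that were tested only together with monocyte/macrophage-like cells gave 11 in plasma-like cells. In fits with 1 mouse left out, the lone mouse of a genotype is assumed to vary like the others.

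Shares of all genes called in the same fit stand in parentheses. Without the filter on low counts, 22 members rose (2.38%) and 1 fell (2.67%) in CD8 T, 15 rose in conventional dendritic-like (4%), 8 rose (2.87%) and 1 fell (3.43%) in neutrophil-like, 6 rose in NK-like (1.33%), 4 rose in CD4 conventional T (1.08%) and 2 rose (1.58%) and 7 fell (2.57%) in plasma-like cells, the NK-like median was 0.70, and differing members numbered 4 in CD4 conventional T (5.61%), 6 in CD8 T (10.7%), 7 in NK-like (9.78%) and 7 in conventional dendritic-like cells (8.81%). With library totals, 14 rose in monocyte/macrophage-like (9.88%, and 6.11% fell, against 7.97 and 9.01% with TMM), 0 in neutrophil-like (2.83%, and 3.62% fell, against 3.32 and 2.74%) and 2 in plasma-like cells (3.5%, and 0.895% fell, against 0.243 and 1%), the plasma-like median was 0.37, and differing members numbered 6 in CD4 conventional T (3.91%), 1 in CD8 T (4.63%), 6 in conventional dendritic-like (4.58%) and 10 in neutrophil-like cells (7.27%). RLE gave 5 differing members in CD4 conventional T cells (4.19%). DESeq2 called 23 higher in monocyte/macrophage-like (6.89%) and 1 in CD4 conventional T cells (1.19%), 1 higher (0.636%) and 1 lower (1.72%) in plasma-like cells, and gave an NK-like median of 0.70.

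The stricter cell filter gave 3 calls in NK-like (0.89%) and 0 in neutrophil-like cells (3.21%), and keeping doublets gave 2 in neutrophil-like cells (2.7%). With interferon genes kept in the clustering, 2 rose in NK-like cells (0.704%), and the medians were 0.75 in CD8 T and 0.46 in NK-like cells. Resolution 0.5 gave 2 calls each in NK-like (0.53%) and neutrophil-like cells (3.24%), and resolution 2 gave 3 in NK-like cells (0.815%). Without the shared barcodes 4 rose in CD8 T cells (0.547%). Within single clusters, 23 rose in the Arg1-led and 19 in the Cd209a-led cluster (median 0.94), and 2 fell in the Retnlg-led cluster. In CD8 T cells, 0 rose in naive-like (median 0.37), 18 in other states, 1 in sub-cluster 1 (median 0.35) and 0 in sub-cluster 12 (median 0.34). Leaving out members prone to free RNA turned the plasma-like median to -0.88, which rests on 3 of 17 genes (Isg20, Bst2 and Ifi27l2a). The share of cells with an IFIT UMI, pooled over mice of a genotype, was 9.21% in knockout and 2.77% in control CD8 T cells at 1000 UMIs, 15.9 and 5.17% at 2000 UMIs and 26.8 and 8.85% unthinned. In monocyte/macrophage-like cells it was 10.4 and 1.96%, then 17.7 and 3.63%, and unthinned 34.2 and 10.2%.

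A replicate block, which pairs mice by their number, gave 8 calls in monocyte/macrophage-like (7.11%), 9 in conventional dendritic-like (4.62%), 7 in CD8 T (0.884%), 2 in NK-like (1%), 2 in neutrophil-like (3.32%), 1 in B-like (Oas1a; 0.697%) and 0 in CD4 conventional T cells (0.0124%), and 2 lower in plasma-like cells (1.52%). The numbers are not said to pair the mice, and the deviations of same-numbered mice correlated between -0.062 and 0.08 across genes. The changes of sign were Ifit1 in B-like cells without control mouse 2 (-0.20, with a range to 6.50 over the mice left out), Ifitm3 in B-like cluster 8 (0.0503), Ifitm3 in CD8 T cells without knockout mouse 1 (0.32) or control mouse 2 (1.496; lowest -1.27 without knockout mouse 2) and at resolution 0.5 (0.32), and Slfn8 in naive-like CD8 T cells (-0.28) and in sub-cluster 1 (-0.35). The cause of these changes was not tested. Too few UMIs to be tested were found for 5 members in B-like and 26 in plasma-like cells.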

Other observations

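A cluster was left without a name because its markers fitted both B-like and monocyte/macrophage-like cells. It was led by Spic and Cbr2 and also by the members Oas1g and Ifit3. It held 104 and 158 cells in knockout mice and 26 and 16 in control mice. The part of B-like transcripts in its values was not tested. The 43 genes had 74 and 101 UMIs per 10000 in this cluster in knockout mice and 75.5 and 28.2 in control mice, so the genotypes overlapped. Its IFIT genes had 0.85 and 2.1 UMIs per 10000 in knockout mice and 0.448 and 0.105 in control mice, and they did not overlap.

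Treg-like cells, too few for a test, had 64.4 and 43.4 UMIs of the 43 genes per 10000 in knockout mice, the first from 23 cells, and 36.8 and 28.4 in control mice. Ifi27l2a alone made up 58 and 60.7% of these UMIs in knockout mice and 59.8 and 51.8% in control mice.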
